A study of Rattus norvegicus with 39 samples.

Results

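The arginine tRNA genes were the 31 rows, of 402 in the genomic tRNA count table, whose name carries Arg directly after the tRNA number. Their anticodons, in DNA letters, were ACG (6 genes), CCG (3 genes), CCT (9 genes), TCG (5 genes) and TCT (8 genes), and the row names place them on 10 chromosomes. Many of these genes had the same counts in all libraries, so that they could not be told apart, and genes of 1 anticodon with identical counts were treated as 1 gene and named by the first. This left 24 distinct arginine count patterns, of 239 for all tRNAs.

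Arginine is encoded by more codons than most amino acids and is served by several isoacceptor tRNAs, which carry the same amino acid but differ in anticodon. ArgTCT and ArgCCT read the purine-rich AGA and AGG codons, and ArgACG, ArgTCG and ArgCCG read codons of the CGN box. Mature sperm translate little, and their small RNA is rich in fragments of tRNAs, part of which are thought to be taken up during passage through the epididymis. The counts used here are of small RNA reads on the sense strand of the tRNA genes and do not separate full-length tRNA from fragments.

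The libraries came from cauda epididymal sperm of wild-type Fischer rats, aged 11 to 12 weeks per the labels, which had been gavaged with ethylene glycol monomethyl ether (EGME) in water. EGME is an industrial glycol ether known as a testicular toxicant. Dosing lasted 5 days and sperm were taken 5 weeks after it ended. The groups received 0 (vehicle, EGME0, n = 10), 50 (EGME50, n = 10), 60 (EGME60, n = 9) or 75 mg/kg/d (EGME75, n = 10), and each library was the total RNA of a single male, so the p-values measure the spread between males.

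Over all 39 libraries the distinct tRNA rows held 52085 to 5545434 counts per library, and the arginine rows 1936 to 301604. The library with the fewest was EGME75 replicate 24. Marker miRNAs moved with dose in the same libraries. The summed level of 6 germ cell miRNAs (all in the table) was 197624 to 330892 CPM (counts scaled to the same total in every library, here of the miRNA table) at EGME0 and 64748 to 220530 at EGME75. That of 7 blood cell miRNAs (6 in the table) was 0 to 3432 CPM at EGME0 and 2478 to 48241 at EGME75, and that of 9 epithelial and muscle miRNAs (all in the table) was 16291 to 39182 and 35936 to 131500. Single members of a list did not all follow its sum, though the counts that follow are raw. The miRNA counts per library had a median of 15324.5 at EGME0 (1098 to 38208) and 3201.5 at EGME75 (139 to 8633). Raw counts and zeros at EGME75 must be read against that lower depth. The muscle marker miR-133a-3p went from 173 counts over all EGME0 males to 8 over all EGME75 males, and miR-1-3p from 28 to 0. Likewise, the blood marker miR-142-5p went from 43 to 7. The germ cell marker miR-34b-3p went from 22231 to 2206 and miR-34b-5p from 2425 to 656. For miR-34b-5p this was a smaller relative fall than that of the median miRNA counts per library. Its raw counts thus show no fall of its level, unlike the germ cell sum. At EGME75 no count was seen for the blood marker miR-144-3p or miR-1-3p, and at EGME0 none for miR-144-3p or the germ cell marker miR-449c-5p. Their part in the results below was not tested, and in such bulk RNA fewer cells of a type cannot be told apart from less RNA per cell.

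Most arginine counts came from few genes. The chromosome 2 gene trna6477-ArgTCT held 1871585 counts over all libraries, 33.5% of the arginine counts and 57.0% of those of ArgTCT. Next came 4 ArgTCT genes, trna10113 on chromosome 1, trna10827 on chromosome 10, trna2730 on chromosome 14 and trna1650 on chromosome 17, with 350815 to 353175 counts each. Their counts differed from each other by a median under 5% per library, and so may hold largely the same reads. They are reported as uncertain members of 1 set, and with such near-identical genes joined the 24 patterns came down to 18.

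The other anticodons also had 1 dominant gene or set. The chromosome 4 gene trna1504-ArgCCT held 82.2% of ArgCCT counts (648298), and the chromosome 10 gene trna5710-ArgCCG 93.0% of ArgCCG counts (496056). The chromosome 1 gene trna3877-ArgTCG held 79.0% of ArgTCG counts (204758). In ArgACG the 3 patterns were of like size, the largest being that of trna1630 on chromosome 17 and trna4697 on chromosome 8, with identical counts (258003, or 36.03%). By the rule used above, trna1630 was near-identical to trna1035, which left 2 sets in ArgACG. At the other end, trna8839-ArgTCT had 161 counts and trna1622-ArgTCT 24 counts in 6 libraries. These 2 did not pass the filter on low counts, and 22 of 24 patterns were tested.

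The first question was whether sperm of dosed males held the same mixture of arginine isoacceptors. At EGME75 they did not: ArgTCT held a smaller part of the arginine counts and the other anticodons larger ones. At EGME60 this depended on how sequencing chip and near-identical genes were treated. Shares within the arginine counts need no scaling between libraries, and they sum to 100%, so the 5 anticodons are not independent.

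ArgTCT made up 56.7% to 72.7% of arginine counts in the EGME0 males (median 67.0%) and 25.9% to 58.8% in the EGME75 males (median 46.8%). All 10 EGME75 males lay below the control median and 9 of 10 below the lowest control. The mean fell from 65.2% ± 5.65 (SD, n = 10) to 46.7% ± 9.62 (n = 10), a difference of -18.5 points (two-sided permutation test, adjusted over 15 tests, p = 0.00045). With sequencing chip as a block, the difference was -17.0 points (adjusted permutation p = 0.00225).

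At EGME60 ArgTCT ranged from 44.2% to 65.3% (median 53.8%), with all 9 males below the control median and 5 of them below the lowest control. The mean was 55.6% ± 7.98, a difference of -9.625 points (exact permutation test, n = 9, adjusted p = 0.0207). It no longer passed with chip as a block (-8.28 points, adjusted permutation p = 0.0622) or with near-identical genes joined (-8.39 points, p = 0.0752). At EGME50 it ranged from 50.2% to 71.3%, with a mean of 61.3% ± 6.42, and did not differ from control beyond the spread between males (adjusted permutation p = 0.2).

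The share of ArgACG, the anticodon whose first base is read as inosine, went the other way. It was 9.28% to 13.7% at EGME0 (median 10.5%) and 12.3% to 21.6% at EGME75 (median 16.1%), and 9 of 10 EGME75 males lay above the highest control. The mean rose from 11.2% ± 1.61 to 16.3% ± 2.52, or by 5.17 points (adjusted permutation p = 0.00045). With near-identical genes joined the rise was smaller, at 3.23 points (adjusted permutation p = 0.00705).

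ArgTCG, which reads CGA, had the smallest share. It was 2.91% to 5.19% at EGME0 (median 3.66%) and 3.62% to 13.5% at EGME75 (median 7.22%), with 8 of 10 EGME75 males above the highest control. The mean rose from 3.71% ± 0.606 to 7.57% ± 2.88 (adjusted permutation p = 0.00105). The highest value belonged to EGME75 replicate 7, which also had the lowest ArgTCT share (25.9%) and the highest ArgCCT share (34.7%).

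ArgCCG, the CGG reader, took 5.64% to 9.98% at EGME0 and 7.49% to 15.9% at EGME75, with 8 of 10 EGME75 males above the highest control, and its mean rose from 7.77% ± 1.47 to 11.3% ± 2.44 (adjusted permutation p = 0.0048). ArgCCT, the AGG reader, took 8.35% to 17.3% at EGME0 and 10.6% to 34.7% at EGME75, so that the groups overlapped widely. Its mean rose from 12.2% ± 3.48 to 18.1% ± 6.98 (adjusted permutation p = 0.0296), but this call was lost when near-identical genes were joined (p = 0.102), when every deposited row was counted (p = 0.0548) and in 7 of 39 fits that left out 1 library. Those were EGME0 replicates 1, 10, 18, 33 and 34 (5.49 to 5.78 points higher than control) and EGME75 replicates 7 (4.08 points) and 24 (5.22 points).

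At EGME60 the shares of ArgACG (13.8% ± 2.63, exact permutation test, adjusted p = 0.0264) and ArgCCG (11.0% ± 2.87, adjusted p = 0.0207) were also higher than control, while ArgTCG (4.62% ± 1.42, p = 0.121) and ArgCCT (15.01% ± 4.35, p = 0.18) did not pass. Of these 3 calls at EGME60, counting ArgTCT, 0 passed with chip as a block and 1 with near-identical genes joined. The ArgACG call was lost without EGME60 replicate 38 (1.99 points higher, p = 0.0515). At EGME50 none passed: the smallest p was that of ArgCCG, at 9.82% ± 2.55 (unadjusted permutation p = 0.0353, adjusted p = 0.0589). ArgCCG passed there without EGME0 replicate 25 (2.26 points higher than control) or 26 (2.30 points), or EGME50 replicate 27 (2.23 points) or 35 (2.46 points).

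**Figure D1:**
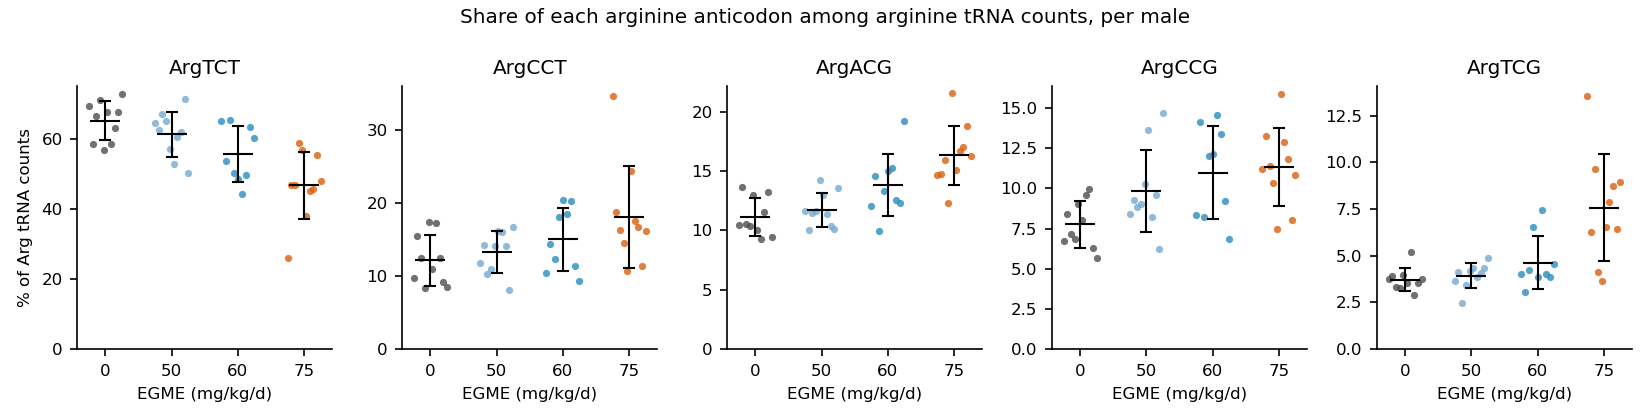
Percent of a male's arginine tRNA counts held by each anticodon (vertical axes, each from 0, with a scale of its own) against EGME dose in mg/kg/d. Points are males, bars the mean ± SD; ArgTCT goes down from a mean of 65.2% to 46.7% and the other 4 anticodons go up.

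The second question was whether arginine tRNAs as a whole changed against other tRNAs. As a plain share of all tRNA counts they did not: arginine held 4.04% to 7.39% at EGME0 (mean 5.60% ± 1.21) and 5.15% ± 1.32 at EGME50, 5.203% ± 0.671 at EGME60 and 5.08% ± 0.917 at EGME75 (permutation tests, exact for the 9 EGME60 males, adjusted p = 0.436 at each dose). This depended on the denominator. SerGCT, a serine tRNA and one of the largest parts of the total, changed by -1.35 (SE 0.27) in log2 at EGME75 and by -0.68 (edgeR adjusted p = 0.0698, not passed) at EGME60, and its part in the result was not tested. With SerGCT left out of the total, the arginine share differed from control by -1.53 points at EGME60 (exact permutation test, adjusted p = 0.021) and by -2.12 points at EGME75 (adjusted p = 0.00411).

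Levels were also compared as CPM of the tRNA table, scaled by the trimmed mean of M-values (TMM), which sets libraries to a common scale through the bulk of the tRNA genes. The arginine sum stood at 49227 to 70489 CPM at EGME0 (median 56370) and 36705 to 54761 CPM at EGME75 (median 43951). All 10 EGME75 males lay below the control median, although the groups overlapped. The fitted log2 fold change was -0.36 (SE 0.10, edgeR quasi-likelihood test over 21 amino acids, adjusted p = 0.00169), against a median of 0.33 over all amino acids. At EGME75, 71.4% of the amino acids were called, 47.6% higher and 23.8% lower. The call was lost with library totals in place of TMM (-0.14, p = 0.366) and with chip as a fixed block (-0.26, p = 0.0548). At EGME50 and EGME60 the arginine sum changed by -0.08 (SE 0.10) and -0.12 (SE 0.10), and neither passed (0% and 33.3% of amino acids called, at EGME60 28.6% higher and 4.76% lower). The slope on dose was -0.29 per 75 mg/kg/d (SE 0.10, edgeR adjusted p = 0.0143), where 61.9% of amino acids were called, 47.6% higher and 14.3% lower. It was lost with library totals (-0.14, p = 0.323) and with chip as a fixed block (-0.22, p = 0.119).

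Among anticodons at EGME75, ArgTCT was called lower and ArgTCG higher, 2 of 5, where 68.1% of all 47 tested anticodons were called, 40.4% higher and 27.7% lower. The median over all anticodons was 0.25 in log2 at that dose. It ran from -0.13 to 0.46 over the ways of scaling and counting that were tried, so that changes are also given against it.

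ArgTCT stood at 29885 to 44506 CPM at EGME0 (median 36275) and 11302 to 31037 CPM at EGME75 (median 20476). All 10 EGME75 males were below the control median. The fitted log2 fold change was -0.82 (SE 0.15, edgeR adjusted p = 1.35e-05), or -1.07 against the median of all anticodons. It was past the threshold and negative under all 11 alternatives and in all 39 fits without 1 library, from -1.15 to -0.57 over the 11 alternatives and the reported fit.

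ArgTCG stood at 1825 to 2644 CPM at EGME0 (median 2097) and 1983 to 5909 CPM at EGME75 (median 3058), with 8 of 10 EGME75 males above the control median. The fitted log2 fold change was 0.66 (SE 0.15, edgeR adjusted p = 0.000198), or 0.41 against the median of all. Without EGME75 replicate 7 the change was 0.30 and did not pass (p = 0.0814), but TMM then took another library as its reference. With the reference held, the call was kept without that male (0.54, adjusted p = 0.000707), and with all males and the other reference it was also kept (0.46, p = 0.0142). It was lost when every deposited row was counted (0.20, p = 0.207).

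ArgACG (0.19, 95% interval -0.09 to 0.48), ArgCCG (0.15, -0.19 to 0.50) and ArgCCT (0.19, -0.19 to 0.58) did not pass at EGME75, and each lay within 0.10 of the median of all anticodons. With library totals in place of TMM all 3 passed as higher (0.41, 0.38 and 0.43), and the median of all anticodons was then 0.46. ArgACG also passed with only the most abundant gene of each anticodon counted (0.30, adjusted p = 0.0454).

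At EGME60, 0 of 5 arginine anticodons were called by edgeR, with 2 at an unadjusted p below 0.05 and 17% of all anticodons called, each of them higher. The 2 were ArgTCT (-0.34, SE 0.16, adjusted p = 0.0882) and ArgCCG (0.38, SE 0.17, adjusted p = 0.0882). ArgTCT was called there by DESeq2 (-0.46, adjusted p = 0.0211), and by edgeR at -0.59 to -0.57 without EGME50 replicate 36, EGME60 replicate 38 or EGME75 replicate 7, 24, 31 or 40. TMM took another reference library in those 6 fits. With all males and that reference ArgTCT was called (-0.59, adjusted p = 0.00846), and with the reference held it was not in any of the 5 fits where that was possible (-0.34, adjusted p from 0.0684 to 0.0961). ArgCCG was called without EGME0 replicate 26 (0.48). Against the median of all anticodons, ArgTCT was at -0.51 and ArgCCG at 0.21.

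At EGME50, 0 of 5 arginine anticodons and 0 of 22 arginine genes were called by edgeR, and 0 of either at an unadjusted p below 0.05. DESeq2, limma-voom and the other alternatives also called 0. The background was 0% of anticodons and 0% of genes called at that dose, so the arginine tRNAs did not differ from the rest in this count.

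Over the slope on dose, 2 of 5 arginine anticodons were called (59.6% of all anticodons, 38.3% higher and 21.3% lower): ArgTCT at -0.68 (SE 0.16, edgeR adjusted p = 0.000766) and ArgTCG at 0.52 (SE 0.15, adjusted p = 0.00392) per 75 mg/kg/d. Between EGME75 and EGME60 the same 2 were called (29.8% of all anticodons, 12.8% higher and 17% lower), ArgTCT at -0.48 (SE 0.16, adjusted p = 0.0183) and ArgTCG at 0.51 (SE 0.15, adjusted p = 0.012). Between EGME60 and EGME50 none of 5 was called by edgeR (0% of all anticodons; 0 of 5 at an unadjusted p below 0.05). With chip as a fixed block, neither difference between EGME75 and EGME60 passed (-0.35 and 0.36), and neither did the slope of ArgTCG (0.31, p = 0.107). That slope was also lost without EGME75 replicate 7 (0.17) or without EGME50 replicate 36, EGME60 replicate 38 or EGME75 replicate 24, 31 or 40 (0.28 to 0.32). The difference between EGME75 and EGME60 was lost without EGME75 replicate 7 for ArgTCG (0.38) and ArgTCT (-0.40), and for ArgTCT also without EGME75 replicate 24 (-0.41) or 31 (-0.43). The TMM reference changed in each of these fits. With it held, the slope of ArgTCG passed without any of the 5 males other than EGME60 replicate 38 (0.42 to 0.53), and both differences between EGME75 and EGME60 passed without EGME75 replicate 7 (0.38 and -0.40, adjusted p = 0.0418 for both) and without the 4 others. With all males and the other reference that slope did not pass (0.30, adjusted p = 0.13).

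**Figure D2:**
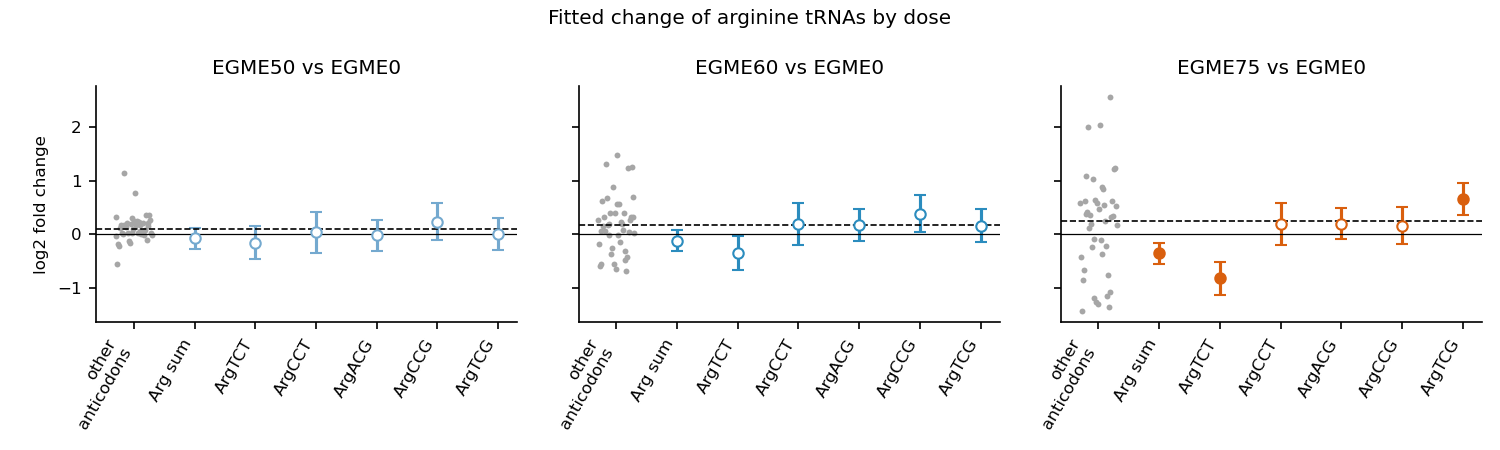
Fitted log2 fold change against EGME0 (vertical axis) of the arginine sum and the 5 arginine anticodons, with 95% intervals, and of the other tested anticodons as grey points, in 1 panel per dose. Filled circles passed the edgeR threshold, open ones did not, and the dashed line is the median of all anticodons; at EGME75 ArgTCT lies at -0.82 and ArgTCG at 0.66.

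Gene by gene, 9 of 22 tested arginine patterns were called at EGME75, 2 higher and 7 lower. Over all 190 tested patterns 64.7% were called, 36.8% higher and 27.9% lower. The median change was -0.06 over the arginine patterns and 0.16 over all patterns. Over the slope on dose 8 of 22 were called, 1 higher and 7 lower (61.1% of all patterns, 37.9% higher and 23.2% lower), and between EGME75 and EGME60 6 of 22, 1 higher and 5 lower (32.1% of all patterns, 14.2% higher and 17.9% lower). The 7 lower at EGME75 included all the near-identical ArgTCT genes, which may hold largely the same reads and count as 1 when joined. Members of that set were also among the lower calls in the other 2 comparisons. The numbers of lower calls are therefore not numbers of separate genes.

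The 4 near-identical ArgTCT genes fell most. For trna1650-ArgTCT, the levels ran from 3318 to 5511 CPM at EGME0 (median 4512) and from 947 to 2793 CPM at EGME75 (median 1970), and the groups did not overlap. Its log2 fold change was -1.19 (SE 0.17, edgeR adjusted p = 2.31e-07). The other members, trna10827 (-1.17), trna2730 (-1.17) and trna10113 (-1.14), gave nearly the same values and also did not overlap with control, where 8.42% of all tested patterns did not. These were the 4 arginine patterns called at EGME60 (21.6% of all patterns, 18.9% higher and 2.63% lower), at -0.54 to -0.55, and they count as 1 when joined.

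The most abundant arginine gene, trna6477-ArgTCT, fell less. It stood at 16698 to 23174 CPM at EGME0 (median 20309) and 7364 to 19902 CPM at EGME75 (median 12436), with all 10 males below the control median and some overlap. Its log2 fold change was -0.57 (SE 0.15, edgeR adjusted p = 0.00107), and with library totals in place of TMM it was -0.36 (p = 0.0918). At EGME60 it was -0.19 (SE 0.15, adjusted p = 0.357).

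Of the ArgTCG genes, trna3877 rose and the minor ones did not. It stood at 1219 to 2051 CPM at EGME0 (median 1514) and 1495 to 5653 CPM at EGME75 (median 2596), with 9 of 10 EGME75 males above the control median. Its log2 fold change was 0.91 (SE 0.17, edgeR adjusted p = 1.44e-05), and this call was kept under all 9 alternatives and without any 1 library. The minor chromosome 17 genes trna1584-ArgTCG (-0.61, SE 0.30, adjusted p = 0.0679) and trna1585-ArgTCG (-0.60, SE 0.30, adjusted p = 0.0715) had lower values at EGME75, all 10 males below the control median, but did not pass. They were near-identical to each other and so may hold largely the same reads. The other minor pattern, trna6098-ArgTCG, did not pass either. Its median was 165 CPM at EGME0 and 176 CPM at EGME75, with 6 of 10 EGME75 males above the control median.

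In ArgCCT and ArgCCG the dominant genes did not pass, and 1 of 5 minor ArgCCT patterns and 1 of 2 minor ArgCCG patterns fell. The chromosome 10 gene trna4326-ArgCCT stood at 76.9 to 162 CPM at EGME0 (median 117) and 23.02 to 86.3 CPM at EGME75 (median 60.3), a log2 fold change of -0.95 (SE 0.19, edgeR adjusted p = 5.02e-05). The gene trna12841-ArgCCG, also on chromosome 10, changed by -0.62 (SE 0.17, adjusted p = 0.00147), or by -0.36 with library totals in place of TMM (p = 0.0887). The dominant trna1504-ArgCCT (0.23, 95% interval -0.18 to 0.65) and trna5710-ArgCCG (0.19, -0.16 to 0.54) did not pass, but both passed as higher with library totals (0.47, adjusted p = 0.0321, and 0.41, adjusted p = 0.0262). The other minor ones, trna15620-ArgCCT (0.19), trna7193-ArgCCT (0.19), trna2426-ArgCCT (0.14), trna12842-ArgCCT (-0.04) and trna1679-ArgCCG (0.02), did not pass.

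In ArgACG, trna1630 was called higher at EGME75 (0.30, SE 0.13, edgeR adjusted p = 0.0469), with all 10 males above the control median. This call was lost in 21 of 39 fits without 1 library, of EGME0 (replicates 1, 9, 10, 18, 25 and 34), EGME50 (3, 12, 19, 27 and 36), EGME60 (29 and 38) or EGME75 (7, 15, 23, 24, 31, 32, 39 and 40), which gave 0.09 to 0.31, and with every deposited row counted the value was -0.04. It was also lost in edgeR with near-identical genes joined (0.22, adjusted p = 0.188). The other ArgACG patterns, trna1035 (0.20) and trna9397 (0.06), did not pass.

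**Figure D3:**
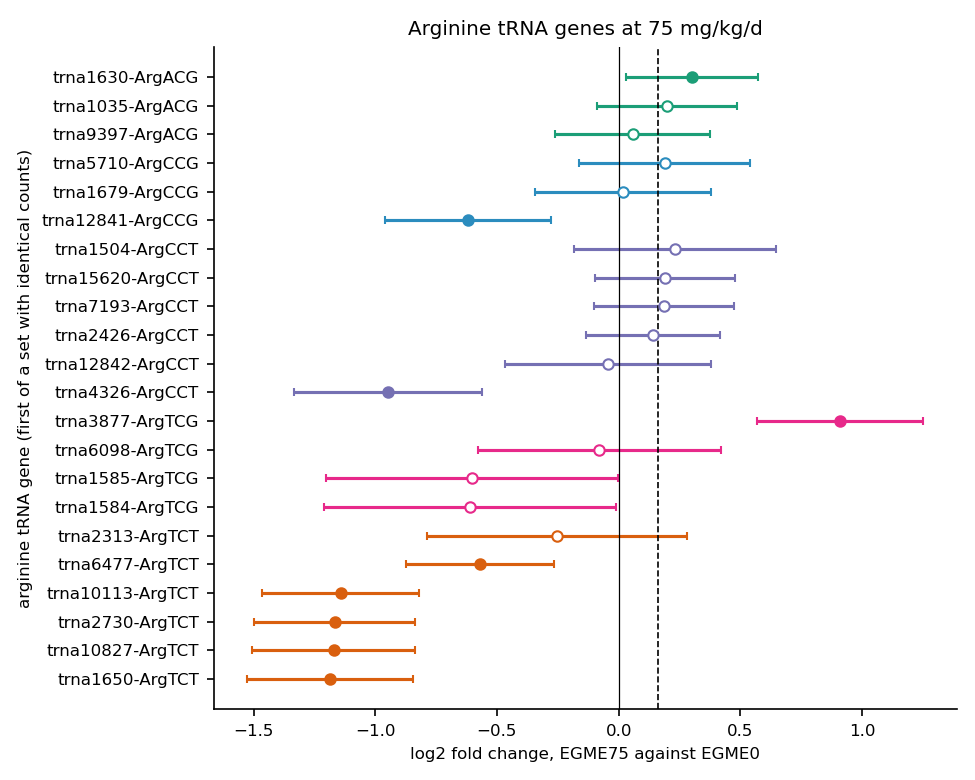
Fitted log2 fold change at EGME75 against EGME0 (horizontal axis) with 95% intervals for the 22 tested arginine tRNA count patterns, grouped and coloured by anticodon. Filled circles passed the edgeR threshold and the dashed line is the median of all tRNA patterns; the 4 near-identical ArgTCT genes lie lowest, at -1.19 to -1.14, and trna3877-ArgTCG highest, at 0.91.

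The unequal change of genes with the same anticodon was then measured within each library, as the share of an anticodon's counts held by its most abundant gene. These tests were added after the gene values had been seen. They were not repeated with near-identical genes joined, so reads shared by such genes may enter an anticodon's total more than once. They were run for the arginine anticodons only, so no background over the other anticodons is given for these shares. In ArgTCT, trna6477 held 47.5% to 57.0% at EGME0 (median 52.4%) and 59.9% to 65.2% at EGME75 (median 64.1%), and the groups did not overlap. The mean rose from 52.9% ± 2.87 to 63.0% ± 2.20, a difference of 10.1 points (permutation test, adjusted over 15 tests, p = 0.0003, and 9.76 points with chip as a block).

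The same share was 59.3% ± 2.995 at EGME60, with all 9 males above the control median and 7 above the highest control (exact permutation test, adjusted p = 0.00255). At EGME50 it was 56.2% ± 1.503, with all 10 males above the control median and 4 above the highest control (adjusted permutation p = 0.0132). Of the arginine measures tested this alone passed at EGME50, and with chip as a block it no longer did (2.54 points, p = 0.447).

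In ArgTCG, trna3877 held 62.7% to 88.8% at EGME0 (median 71.9%) and 74.3% to 95.7% at EGME75 (median 87.8%), with means of 74.2% ± 8.87 and 87.4% ± 6.76 (adjusted permutation p = 0.00776). The most abundant genes of ArgACG (35.1% ± 0.586 and 37.99% ± 1.96, p = 0.00255) and ArgCCG (91.7% ± 2.37 and 94.2% ± 1.33, p = 0.0283) also held larger shares at EGME75. In ArgACG that gene, trna1630, was near-identical to trna1035, so both may hold many of the same reads. The ArgCCG call was lost without EGME0 replicate 1, 2 or 34 or EGME75 replicate 7, 23 or 24 (2.14 to 2.30 points higher than control). That of ArgCCT did not pass (81.2% ± 2.95 and 83.5% ± 3.40, p = 0.202).

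**Figure D4:**
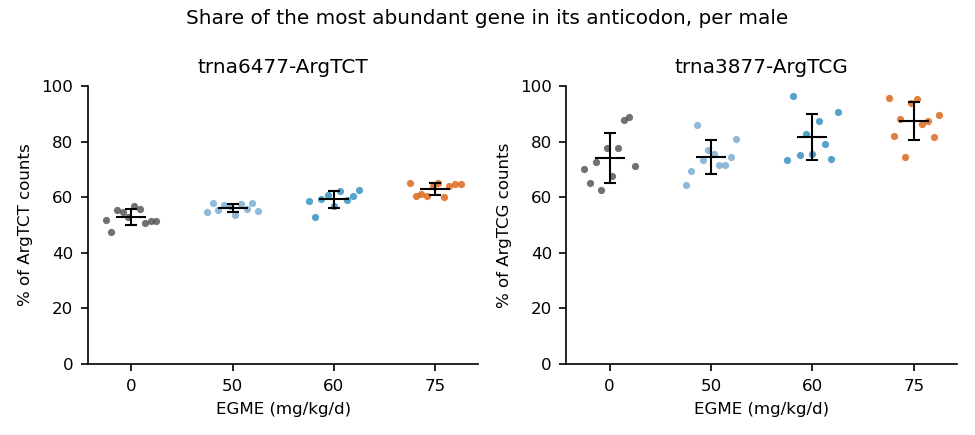
Percent of an anticodon's counts held by its most abundant gene (vertical axes, 0 to 100) against EGME dose in mg/kg/d, for trna6477 in ArgTCT and trna3877 in ArgTCG. Points are males, bars the mean ± SD; for trna6477 every EGME75 male (59.9% to 65.2%) lies above every EGME0 male (47.5% to 57.0%).

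Arginine tRNAs were also listed in the table of RNAcentral entries, a collection of noncoding RNA sequences, as 6 entries named for tRNA-Arg with no anticodon, 1 of them with no count. The largest held 749931 counts and changed by -0.42 at EGME75 (SE 0.46, edgeR adjusted p = 0.451). The next, with 9789 counts, changed by -0.34 (SE 0.38, adjusted p = 0.453). Of the 5 tested, 1 was called lower at EGME75, where 43.6% of all entries were called and 24% lower. It held 8499 counts and changed by -1.5 (SE 0.45, adjusted p = 0.0062), while the median of all entries was -0.75. It was called lower with all 3 other settings tried, at -2.20, -2.19 and -1.69. The count depended on the scaling: with RLE size factors, the median-of-ratios scaling of DESeq2, 4 of 5 were called lower, the largest at -1.12 (adjusted p = 0.0374), and with library totals 3 of 5, without the largest (-0.89, adjusted p = 0.128). Of all 2757 entries, 1364 were called lower with RLE and 959 with library totals. The median of all entries was then -1.38 and -1.32. With RLE, the arginine entries called at -1.09, -1.12 and -1.24 fell less than that median. The entries could not be matched to the genes above.

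As a description, the arginine levels were set beside those of other anticodons over the 39 libraries, which share depth, scaling and the dose design. The log2 CPM of ArgTCT was most like that of IleAAT (Pearson r = 0.90), LeuCAA (0.80) and SerCGA (0.71), which themselves changed by -1.19, -1.27 and -0.77 in log2 at EGME75. ArgTCG was most like HisGTG (0.81), ThrAGT (0.76) and ValAAC (0.73), which changed by 1.04, 2.56 and 1.24 at that dose. Among arginine anticodons, ArgCCG and ArgCCT went together (r = 0.77) and ArgTCG ran opposite to ArgTCT (r = -0.76).

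The 9 anticodons of serine and leucine and the 3 of lysine and histidine were taken as lists for comparison. At EGME75, 6 of the 9 serine and leucine anticodons were called lower and 3 higher, with a median of -1.08. Of the 3 lysine and histidine anticodons 2 were called higher and none lower, with a median of 1.04. For the 5 of arginine the median was 0.19, and that of all anticodons 0.25.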

How the data were processed

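Per the labels' protocols, RNA was extracted with the mirVana kit with DNase treatment, 10 ng per male entered Ion total RNA-seq libraries, and the 39 libraries ran on 13 chips of 3. The authors deposited raw read counts per tRNA gene, miRNA and RNAcentral entry, and the ncRNA table was not used here. FastQC, Bowtie and DESeq2 are named in the submitters' processing notes. The program that counted reads, and how it placed those matching several genes, are not given in the sources used here, so near-identical genes may share reads. Gene lengths were not in the tables, so counts were not corrected for length. All columns matched a sample (unmatched columns: 0).

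Rows of 1 anticodon with identical counts were joined (156 rows repeated another), 7 rows without counts were dropped, and the rest were summed by anticodon and amino acid. The tests on counts used edgeR 4.0.16 (R version 4.3.3, limma 3.58.1, data.table version 1.17.8): TMM factors from the gene level (0.637 to 1.49), filterByExpr by group, robust quasi-likelihood fits over all libraries, and Benjamini-Hochberg adjustment over all features of a level (190 patterns, 47 anticodons, 21 amino acids, 2757 RNAcentral entries) at 0.05. DESeq2 1.42.0 was an alternative. Shares were compared by two-sided permutation tests of means (100000 permutations, all 92378 regroupings where a group had 9 males, and 10000 permutations within chips for the chip block), adjusted within each family, with numpy 2.4.6, scipy 1.17.1, pandas 2.3.3 and matplotlib 3.10.9. The scripts were tested on simulated data.

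All arginine anticodons were named; of the genes, the most abundant of each anticodon and the 3 highest and 3 lowest changes past the threshold, with others named after their values were seen. Non-members were the 3 most alike anticodons, and SerGCT. The members, lists and marker miRNAs were chosen with earlier results of these data known.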

Additional observations from a re-analysis of the deposited data

Results flagged for a closer look

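Shares were screened within each dose group for a single male far from the others, in 44 groups, of which chance alone picks about 1 in 20, and 2 stood out. EGME0 replicate 25 had an ArgTCG share of 5.19% of arginine counts, where the other controls had 2.91% to 3.95%. Without it the ArgTCG share at EGME60 passed the threshold (1.07 points higher than control, exact permutation test with 9 males, adjusted p = 0.0308). In EGME50 replicate 35, trna1504 held 75.4% of ArgCCT counts, where the others of its group had 79.8% to 84.0%.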

How the results depend on the processing

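TMM takes 1 library as its reference: EGME60 replicate 38 in the reported fit and in 33 of 39 fits without 1 library, which gave -0.39 to -0.32 for the arginine sum at EGME75 and 0.13 to 0.19 for the median of all tRNA patterns. In the other 6 (without EGME50 replicate 36, EGME60 replicate 38 or EGME75 replicate 7, 24, 31 or 40) the reference changed, and the values were -0.58 to -0.54 and -0.13 to -0.04. With that other reference, EGME75 replicate 32, and all libraries, a setting chosen after seeing the data, the arginine anticodons called went from 0 to 1 at EGME60 and from 2 to 1 for the slope. Leaving out 1 library gave 0 to 1 arginine anticodons called at EGME60, 1 to 2 at EGME75, 0 to 2 between EGME75 and EGME60 and 1 to 2 for the slope, 4 to 7 arginine genes at EGME60 (7 without EGME75 replicate 7), an arginine sum of -0.365 to -0.0729 at EGME60, 0 to 1 anticodon shares within arginine at EGME50 and 1 to 2 most abundant gene shares at EGME60.

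The arginine anticodons called at EGME60 went from 0 to 1 with RLE factors, no filter, every deposited row, DESeq2 or TMM factors of the summed table. At EGME75 they went from 2 to 5 with library totals, 3 with the most abundant gene of each anticodon and 1 with every deposited row. For the slope they went from 2 to 1 with no filter, every deposited row, chip as a fixed block or TMM factors of the summed table. Between EGME75 and EGME60 they went from 2 to 1 with RLE factors, library totals or near-identical genes joined, and 0 with chip as a fixed block. Joining near-identical genes, chosen after seeing the data, left 1 of 4 arginine genes called at EGME60 and 1 of 3 anticodon shares there, and chip as a block left 0 shares at EGME60 and 0 of 1 most abundant gene shares at EGME50. The arginine sum was -0.14 at EGME75 and for the slope with library totals, and -0.26 and -0.22 with chip as a fixed block, none past the threshold, while at EGME60 it passed with every deposited row (-0.35) and DESeq2 (-0.23). The arginine share of tRNA counts was off control by -1.53 and -2.12 points at EGME60 and EGME75 without SerGCT, and by -3.19 and -3.77 points without serine, glycine and methionine. Counting every deposited row turned trna1630-ArgACG at EGME75 to -0.0442. The cause of these changes was not tested, beyond the fewer patterns that joining leaves. No paired analysis was possible because each number was given to 1 male only. EGME75 replicate 24, with 1936 arginine counts, limits the precision of minor genes at that dose.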
